A study of Mus musculus with 8 samples.

Results

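The miR-34 family was measured as 5 mature microRNAs (miRNAs, small RNAs that guide Argonaute proteins to mRNAs and repress them): mmu-miR-34a-5p, mmu-miR-34b-5p, mmu-miR-34b-3p, mmu-miR-34c-5p and mmu-miR-34c-3p, written below without the prefix for mouse. They were taken by name from the 611 mouse miRNAs that the Agilent arrays carried, and every one of the 5 was detected on all 8 arrays. The cells were C3H10T1/2, a mouse mesenchymal cell line that answers hedgehog signals and can form bone and cartilage cells. The WT group was kept for 48 h with 750 nM wild type IhhN, the signalling part of the secreted protein Indian hedgehog. Cells of the MT group had 750 nM of E95K mutant IhhN for the same time, a form tied to inherited shortening of the fingers, and cells of the control group were not induced with protein. A dose of 750 nM stands in the control labels too, but these cells were taken here as not induced. Each group had 2 RNA samples (replicates 1 and 2), and each WT sample was hybridized on 2 arrays, which made 4 WT, 2 MT and 2 control arrays. The comparisons ask whether wild type and mutant protein change the family, and whether they do so to a different degree.

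A miRNA hairpin is cut into a 5p arm and a 3p arm, and whichever arm is loaded into Argonaute finds its mRNAs mainly through its seed, bases 2 to 8. The miR-34 genes are known as transcriptional targets of p53, and their 5p arms lower proteins of the cell cycle and of cell survival. In the bone lineage, miR-34c is known to target Runx2, a transcription factor of bone-forming cells, and the family as a whole is known to act on osteoblasts. Mir34a lies alone in the genome, whereas Mir34b and Mir34c are made from a single shared transcript.

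The sequences show which members share a seed and therefore which ones could pair with the same sites. RefSeq (GRCm38.p6) did not hold miR-34c-5p by name, so the seed of that member was not compared here. It held the other 4 of the 5 members. All are given 5′ to 3′, with the seed in capitals:
miR-34a-5p: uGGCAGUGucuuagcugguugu
miR-34b-5p: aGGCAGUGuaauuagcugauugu
miR-34b-3p: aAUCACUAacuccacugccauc
miR-34c-3p: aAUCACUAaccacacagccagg
The 5p arms of miR-34a and miR-34b have the seed GGCAGUG in common, and the 3p arms of miR-34b and miR-34c have AUCACUA in common. Counted from the 5′ end, these 3p arms carried the same base at 17 of 22 positions, and miR-34a-5p and miR-34b-5p at 11 of 22. Among the 476 array miRNAs that RefSeq matched by name, AUCACUA occurred in no other one, and GGCAGUG occurred in 2 others, miR-449a-5p and miR-449c-5p, which were detected on no array.

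Mir34a lies at chr4:150068454-150068555 on the plus strand, with miR-34a-5p at chr4:150068473-150068494. Mir34b lies at chr9:51103562-51103645 and Mir34c at chr9:51103034-51103110, both on the minus strand and 451 bases apart. In the hairpin of Mir34b, shown because its arms gave the widest contrast within the family, the 5p arm and then the 3p arm are in capitals:
Mir34b: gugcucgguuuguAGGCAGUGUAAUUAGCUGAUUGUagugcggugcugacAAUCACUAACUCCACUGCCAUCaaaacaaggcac
miR-34b-5p is at chr9:51103610-51103632, miR-34b-3p at chr9:51103574-51103595 and miR-34c-3p at chr9:51103044-51103065.

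Each array was scaled to its 75th percentile over the 174 probes that every array detected. Levels are scaled signals on the log2 scale, where 1 unit is a 2-fold difference. A level depends on how well its probe binds, so levels of different miRNAs were not set against each other. Between 104 and 150 mouse miRNAs were detected on an array, with the lowest counts on both arrays of WT replicate 1 (104 and 117) and on that of MT replicate 1 (106). All arrays lay on 1 slide, with the WT arrays in row 1 and the others in row 2. WT replicate 1 and both MT samples lay in the left columns, and WT replicate 2 and both control samples in the right columns. Side and group can therefore not be told apart for MT against control, nor can row and group for WT. Markers were counted by arm, with every arm on the array. Of 16 arms of mesenchymal marker miRNAs, such as miR-199a, miR-214 and miR-21, 9 were detected on all arrays and 4 on none. Of 40 arms of markers of liver, nerve, blood, muscle, epithelium and other cell types 38 were detected on none. Of the 12 mesenchymal markers tested, 6 were above and 6 below control in each comparison with it, with median differences of 0.03 for WT and 0.08 for MT, and 0 passed limma's adjusted p. The summed signal of all 16 was 7468 to 9035 on WT arrays, 8312 to 9228 on MT arrays and 9886 to 10110 on control arrays. The sum of the other markers (87.7 to 191, 103 to 243 and 71.5 to 78.0) lay over probes almost all of which were not detected, so no change of another cell type can be read from it. The lowest difference among the mesenchymal markers was that of miR-21-5p (-0.89 for WT and -0.71 for MT), whereas miR-214-3p lay the other way (0.49 and 0.78). The probe of miR-21-5p was also the brightest of the mesenchymal markers (1766 to 6778 signal units before scaling), so it weighed most in their linear sum. In such bulk samples fewer cells of a type and less RNA per cell cannot be told apart.

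miR-34b-5p, whose seed is that of miR-34a-5p, had the widest differences of the family. Its level was 7.14 and 7.69 in WT replicates 1 and 2, 7.53 and 7.41 in the MT replicates, and 7.90 and 8.18 in the control replicates. Both control samples were above all other samples, and the WT and MT groups overlapped. Before scaling, its probe read 127 to 222 signal units on the WT arrays, 142 to 158 on the MT arrays and 339 to 361 on the control arrays, which were also the brighter arrays as a whole. In limma's test the WT group was lower than control by 0.63 on the log2 scale, a difference of -0.63 (SE 0.22, 95% interval -1.15 to -0.10), or 1.54-fold lower. Without WT replicate 1 it was -0.35, and without WT replicate 2 it was -0.90. The p was 0.0255 before adjustment and 0.139 after it, so this did not pass. The MT group differed by -0.57 (SE 0.22, interval -1.09 to -0.04, limma adjusted p = 0.106, from 0.0372 before adjustment), or 1.48-fold lower. In order from the lowest difference, miR-34b-5p stood 7th of the 142 miRNAs tested in the WT comparison and 12th in the MT comparison.

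miR-34b-3p, the opposite arm of the same hairpin, lay the other way. Its level was 6.98 and 6.76 in the WT replicates, 7.01 and 6.91 in the MT replicates, and 6.55 and 6.47 in the control replicates. Here both control samples were below all others, and WT and MT overlapped again. The WT group differed from control by 0.37 (SE 0.16, interval -0.0034 to 0.73, limma adjusted p = 0.171, from 0.0516 before adjustment) and the MT group by 0.45 (interval 0.08 to 0.82, limma adjusted p = 0.0890, from 0.0228 before adjustment), although with scaling over all mouse probes these became 0.0073 and -0.26. These are 1.29-fold and 1.37-fold higher. The median over all 142 miRNAs was 0.11 (WT) and 0.13 (MT), and miR-34b-3p was above it by 0.26 and 0.32. Under normexp background correction the MT difference of 0.44 passed with a limma adjusted p of 0.0466, in a setting that called 40 of 142 miRNAs for MT. It was the only call of a family member among the 18 alternatives to each comparison.

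miR-34c-5p, known to target Runx2, was like miR-34b-5p highest in the control group, over a narrower range. Its level was 7.87 and 8.10 in the WT replicates, 7.96 and 8.001 in the MT replicates, and 8.39 and 8.36 in the control replicates. The control samples were above all others, with an SD of 0.02. The WT group differed by -0.39 (SE 0.15, interval -0.75 to -0.03, limma adjusted p = 0.159, from 0.0392 before adjustment) and the MT group by -0.39 (interval -0.76 to -0.03, limma adjusted p = 0.106, from 0.0368 before adjustment), each 1.31-fold lower. From the lowest difference it stood 22nd and 25th of 142.

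miR-34c-3p, which shares its seed with miR-34b-3p, did not separate from control. Its level was 6.38 and 6.29 in the WT replicates, 6.10 and 6.15 in the MT replicates, and 6.31 and 5.99 in the control replicates. The control samples thus spanned both MT samples and WT replicate 2. The differences from control were 0.19 for WT (interval -0.21 to 0.58, limma adjusted p = 0.467) and -0.03 for MT (interval -0.42 to 0.37, limma adjusted p = 0.937), or 0.03 for WT without control replicate 2, with the sign turned to -0.17 for WT by scaling over all mouse probes and to 0.78 for MT by total gene signal, a summed value of Feature Extraction. Its probe read 58.3 to 120 signal units before scaling, and its second, dimmer probe was detected on 4 of the 8 arrays.

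miR-34a-5p, the member from the separate gene, overlapped control in both induced groups. Its level was 8.78 and 8.81 in the WT replicates, 8.97 and 8.71 in the MT replicates, and 8.86 and 8.82 in the control replicates. The MT samples enclosed those of both other groups. The differences from control were -0.05 for WT (interval -0.42 to 0.33, limma adjusted p = 0.872) and -0.0035 for MT (interval -0.37 to 0.37, limma adjusted p = 0.990), or 0.018 and 0.011 with quantile normalization and -0.40 and -0.72 with scaling over all mouse probes. The intervals run from 0.749-fold to 1.25-fold for WT and from 0.771-fold to 1.29-fold for MT.

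**Figure D1:**
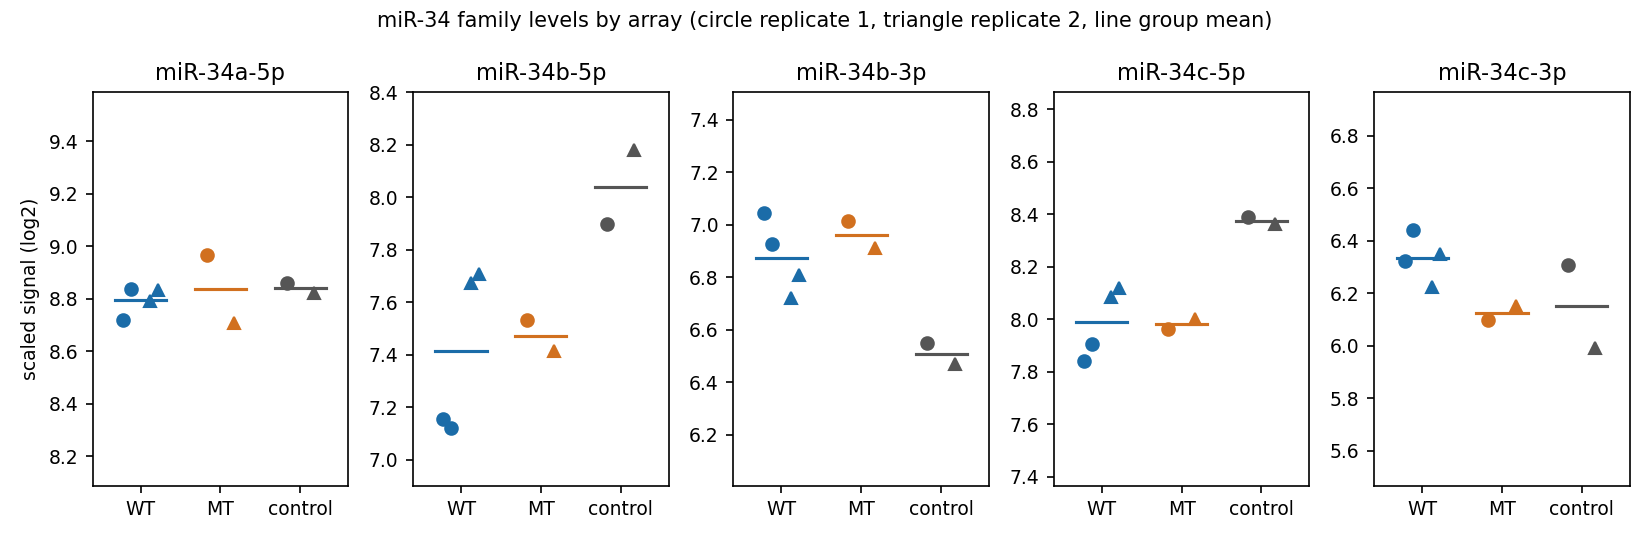
Scaled signal on the log2 scale of each family member (panels, each spanning 1.5 units) on every array of each group, with circles for replicate 1, triangles for replicate 2 and lines at the group means. The control points of miR-34b-5p (7.90 and 8.18) and miR-34c-5p (8.39 and 8.36) lie above all others, those of miR-34b-3p (6.55 and 6.47) lie below all others, and the groups overlap for miR-34a-5p.

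Of all 142 miRNAs, 0 (0%) passed an adjusted p of 0.05 in limma's test of any of the 3 comparisons, family members included. Without MT replicate 2, 18 miRNAs passed in the MT comparison with control and 1 between WT and MT, among them 0 members. At an unadjusted p under 0.05 the counts were 40 (28.2%) for WT and 56 (39.4%) for MT, each against control, and 0 (0%) between WT and MT. The family had 2 of 5 members below that p in the WT comparison, both 5p arms of the shared transcript, and 3 of 5 in the MT comparison, with miR-34b-3p added. Both 5p arms were lower in each, against 10.6% of all miRNAs for WT and 12.7% for MT. Higher than control at that p were 0 members for WT, against 17.6%, and 1 for MT, against 26.8%. The arms of miR-34b and miR-34c come from one transcript, so they are not independent of each other. For WT against control the arrays of 2 members lay wholly below control, against 22.5% of all miRNAs, and those of 1 member wholly above, against 29.6%. For MT against control the same members did so, against 26.8% below and 40.8% above. No member reached a 2-fold difference, which 2.11% of miRNAs did for WT and 0.704% for MT. With scaling over all mouse probes miR-34b-5p (-1.28) and miR-34c-5p (-1.11) did for MT. In that setting the MT median over all 142 miRNAs was -0.51, and 89.4% of them were below 0. The share of miRNAs past 2-fold there was not counted.

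**Figure D2:**
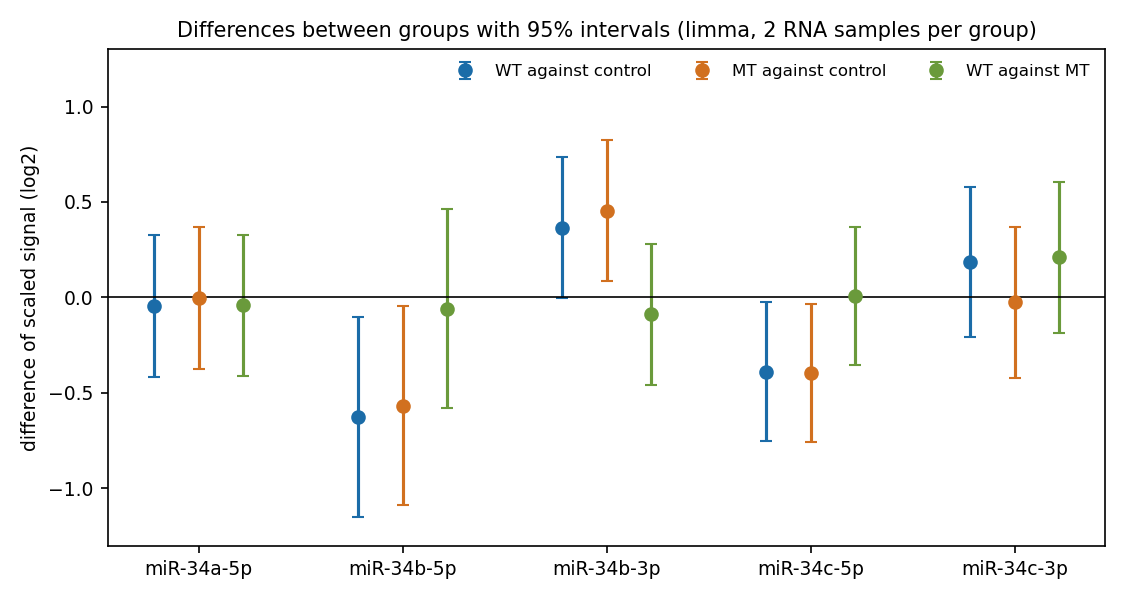
Difference of scaled signal on the log2 scale (vertical axis) for each family member in the 3 comparisons, with limma's 95% intervals over 2 RNA samples per group. Both 5p arms of the shared transcript are below 0 against control (-0.63 and -0.57 for miR-34b-5p), miR-34b-3p is above 0 (0.37 and 0.45), and every interval for WT against MT includes 0.

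Wild type and mutant protein were not told apart by any member. WT minus MT was -0.04 for miR-34a-5p, -0.06 for miR-34b-5p, -0.09 for miR-34b-3p and 0.0066 for miR-34c-5p, each with overlapping samples and a limma adjusted p of 0.990 to 1. For miR-34b-5p the 95% interval of -0.58 to 0.46 runs from 0.669-fold to 1.38-fold. miR-34c-3p was the exception in order only, since its 4 WT arrays were above both MT arrays, as were those of 4.23% of all miRNAs, with a difference of 0.21 (interval -0.18 to 0.60, limma adjusted p = 0.990, from 0.247 before adjustment).

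The arms of one hairpin were compared within each array, where the scaling cancels. A 5p minus 3p value is no ratio of molecules, because it holds the binding of 2 probes, but its change between groups can be read. For miR-34b it was 0.15 and 0.93 in the WT replicates, 0.52 and 0.50 in the MT replicates, and 1.35 and 1.71 in the control replicates. Both control samples were above all others, and the WT replicates were further apart than those of any other group. The change from control was -0.99 (SE 0.43) for WT and -1.02 (SE 0.18) for MT. For miR-34c the value was 1.49 and 1.81 in the WT replicates, 1.86 and 1.85 in the MT replicates, and 2.08 and 2.37 in the control replicates, a change of -0.57 (SE 0.22) for WT and -0.37 (SE 0.15) for MT. Every induced array was again below every control array. In a two-sided exact permutation test all 4 changes had p = 0.333, the smallest that 2 samples against 2 allow, and 0.5 after adjustment over the 18 comparisons of this kind.

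A limma fit of 5p minus 3p, chosen after the data were seen, covered the 11 hairpins with both arms tested. It borrowed 1 spread for all of them (SE 0.30). The hairpins share the same 6 RNA samples, but this spread counted them as independent. The SE of miR-34b from its own samples was 0.43 for WT and 0.18 for MT. In this fit miR-34b passed in the WT comparison (limma adjusted p = 0.0190) and in the MT comparison (limma adjusted p = 0.0110). Passing were 2 of 11 hairpins (18.2%) for WT and 4 of 11 (36.4%) for MT, miR-34b included. miR-34c did not pass in either comparison (adjusted p = 0.125 and 0.320). The change of miR-34b was the largest of the 11 in size for WT and 2nd for MT, where the median sizes were 0.57 and 0.59. Non-overlap between the arrays was common among these hairpins, at 54.5% for WT and 81.8% for MT. With slide side as a term in the fit the change of miR-34b was -0.60 for WT (adjusted p = 0.416) and -0.25 for MT (adjusted p = 0.939), so neither call held. Only WT had samples on both sides, so the side term was set by WT replicate 1 minus WT replicate 2. For WT against control it thus repeats the fit without WT replicate 1 (-0.60). In that comparison the call was also lost without control replicate 1 (-1.17) and without control replicate 2 (-0.81). For MT against control it was lost without MT replicate 1 (-1.03, adjusted p = 0.0797), MT replicate 2 (-1.01, adjusted p = 0.0576) or control replicate 2 (-0.84, adjusted p = 0.294).

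**Figure D3:**
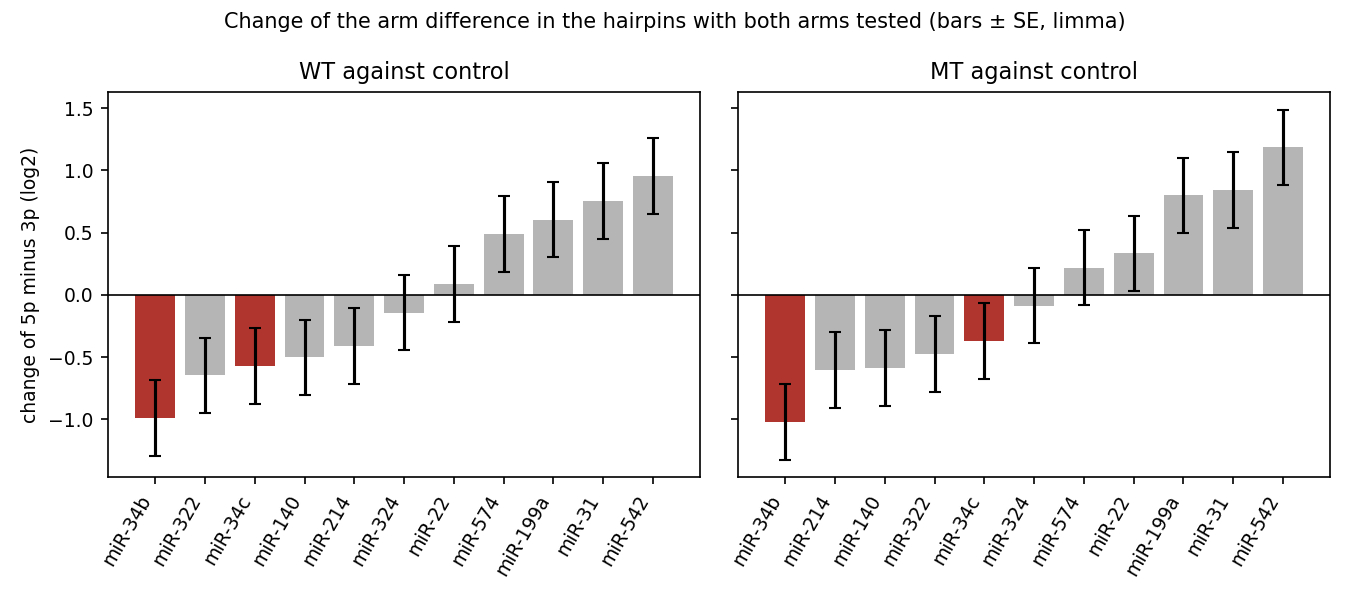
Change of 5p minus 3p on the log2 scale (vertical axis, bars with limma's SE of 0.30) for the 11 hairpins with both arms tested, in WT against control and MT against control, with miR-34b and miR-34c in red. miR-34b has the lowest value in both panels (-0.99 and -1.02), and other hairpins reach similar sizes in the opposite direction.

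miR-34a-5p and the 5p arms of the shared transcript also stood further apart in the induced groups than in control, within each array. miR-34a-5p minus miR-34b-5p was 1.64 and 1.12 in the WT replicates, 1.44 and 1.29 in the MT replicates, and 0.96 and 0.64 in the control replicates, a change of 0.58 (SE 0.31) for WT and 0.56 (SE 0.18) for MT. miR-34a-5p minus miR-34c-5p was 0.91 and 0.71, 1.01 and 0.71, and 0.47 and 0.46 in the same order, a change of 0.34 (SE 0.10) and 0.39 (SE 0.15). All induced arrays were above all control arrays for both pairs, with the exact permutation p again at its smallest value of 0.333. How often other pairs of miRNAs part in this way was not counted. For 5p minus 3p of the 11 hairpins, arrays did not overlap, in either direction, for 54.5% (WT against control) and 81.8% (MT against control). Between WT and MT that share was 0%. Arrays of single miRNAs, a different measure, lay wholly below control for 22.5% (WT) and 26.8% (MT), and wholly above for 29.6% and 40.8%. Once slide side entered the fit, the change of miR-34a-5p minus miR-34b-5p was 0.32 for WT and only 0.04 for MT. The MT change of miR-34a-5p minus miR-34c-5p was then 0.20. Without slide side in the fit, miR-34b-5p and miR-34c-5p did not separate from each other (changes of -0.24 and -0.17, overlapping samples). Between the 3p arms, miR-34b-3p minus miR-34c-3p changed by 0.48 in the MT group, whose arrays were all above control, and by 0.18 in the WT group, which overlapped control, but by -0.48 and -0.13 with total gene signal. WT minus MT was -0.30 for this pair (SE 0.10, exact permutation p = 0.333), but 0.36 with total gene signal. At -0.30 all WT arrays were below all MT arrays, which was not counted over other pairs of this kind.

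Groups and sides of the slide were partly aligned, so the members were also read by side. On the left side, WT replicate 1 minus the MT mean was -0.33 for miR-34b-5p, 0.02 for miR-34b-3p and -0.11 for miR-34c-5p. On the right side, WT replicate 2 minus the control mean was -0.35, 0.26 and -0.27 for the same members, in the direction of the whole comparison. With the side as a term in the fit, MT minus control became -0.01 for miR-34b-5p (from -0.57) and -0.17 for miR-34c-5p (from -0.39). The side term rests on the WT samples alone, because only they lay on both sides. These were also different RNA samples, so side and RNA sample cannot be told apart in that term. WT replicate 1, on the left, minus WT replicate 2 was -0.55 for miR-34b-5p. The part of the slide in the MT differences cannot be told apart from that of the protein.

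The second probe of each member gave differences of the same sign in 4 of the 5. It read -0.92 for WT and -0.76 for MT against control for miR-34b-5p, 0.31 and 0.40 for miR-34b-3p, -0.41 and -0.40 for miR-34c-5p, and -0.10 and -0.03 for miR-34a-5p. For miR-34c-3p it read -0.09 and -0.19, so the sign differed for WT. The probes of a member detect the same RNA on the same arrays and are no replicates of the condition.

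**Figure D4:**
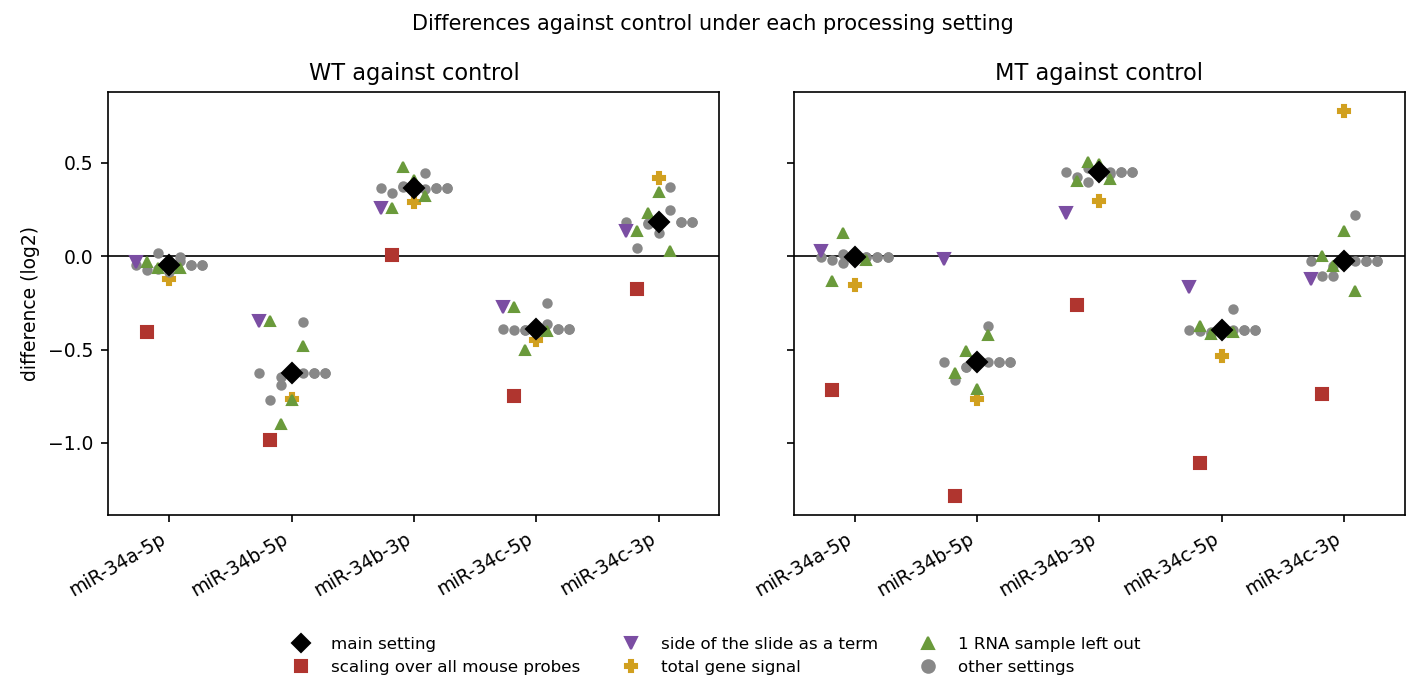
Difference from control on the log2 scale (vertical axis) of each family member under the reported setting (black diamonds) and each alternative, for WT and MT. miR-34b-5p and miR-34c-5p stay below 0 in all settings, while scaling over all mouse probes (red squares) lowers every member and puts miR-34b-3p at -0.26 for MT.

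Over the 6 RNA samples, which share 1 slide and its layout, miR-34b-5p and miR-34c-5p had a Pearson r of 0.93, and miR-34b-5p and miR-34b-3p one of -0.91. miR-34a-5p had an r of 0.26, 0.02 and 0.12 with miR-34b-5p, miR-34b-3p and miR-34c-5p. Among the 98 other miRNAs detected on all arrays, those most like miR-34b-5p were miR-199a-3p (r = 0.99), miR-218-5p (0.98) and miR-29c-3p (0.95). Most like miR-34b-3p were miR-193b-3p (0.996), miR-199a-5p (0.99) and miR-99b-5p (0.99), so the arms of miR-34b were each near a different arm of miR-199a. Most like miR-34c-5p were miR-29b-3p (0.98), miR-148a-3p (0.98) and miR-26b-5p (0.97). For miR-34c-3p they were miR-27b-3p (0.87), miR-23b-3p (0.85) and miR-30d-5p (0.84), and for miR-34a-5p they were miR-193-3p (0.88), miR-324-5p (0.65) and miR-98-5p (0.60). Over the 98 miRNAs the median r was -0.57 with miR-34b-5p, 0.58 with miR-34b-3p, -0.54 with miR-34c-5p, 0.11 with miR-34c-3p and -0.04 with miR-34a-5p.

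Related miRNAs were followed as lists written from general knowledge. Of the seed relatives miR-449a, miR-449b and miR-449c, known from ciliated epithelium, 3 were on the array and none was detected on any array. Of 14 arms on the array from other miRNAs linked to p53, 5 were tested (miR-107-3p, miR-143-3p, miR-145-5p, miR-15a-5p and miR-16-5p), and 0 passed limma's adjusted p in any comparison. At an unadjusted p under 0.05, 1 of the 5 was lower for WT and 2 for MT, against 10.6% and 12.7% of all miRNAs, and the median difference was -0.30 for WT and -0.15 for MT, beside 0.11 and 0.13 over all miRNAs. Of 12 arms on the array from other miRNAs known to target Runx2, 3 were tested (miR-23a-3p, miR-30c-5p and miR-218-5p), with 0 past the adjusted p. At an unadjusted p under 0.05, 1 was lower for WT and 0 for MT, against the same shares of all miRNAs, and the medians were -0.06 and -0.27.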

How the data were processed

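The authors deposited scanner output of 8 one-colour Agilent miRNA arrays, with the background-subtracted intensity of each of 13715 spots in linear signal units, not normalized between arrays. A deposited table of the whole series held the same intensity to within 0.005 units, with array medians of -0.09 to 2.31. The file header names Feature Extraction 10.7.1.1 and build mm9, and the submitters' processing notes name version 9.1. The methods name another version and RNA amount than the labels or files, and state no test for these arrays.

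Control and outlier spots were left out and the spots of a probe averaged. A probe was detected where over 50% of its spots were well above background. For scaling, each array's 75th percentile was taken over 174 probes that every array detected, and signals were divided by it, floored (4.08 on the log2 scale) and taken to log2, with the brightest probe for each miRNA. Technical arrays were averaged. The 142 of 611 mouse miRNAs detected on all arrays of a group were fitted with limma 3.58.1 in R 4.3.3, 3 groups together, no replicate block, Benjamini-Hochberg adjustment and a threshold of 0.05, which left 3 residual degrees of freedom. The methods say that induction assays were repeated, but no source used here ties the RNA samples of a group to separate inductions, so p-values measure the spread between these samples, which may be technical. No array spot was saturated. Differences are relative to the scaling, not absolute. Precision is limited by having 2 RNA samples a group.

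Pairs of members were compared with a two-sided exact permutation test over RNA samples. Named were all members, list miRNAs past the threshold (none), and the 3 miRNAs most like each member. The list and marker miRNAs that the text names besides were chosen after their values were seen. The members and lists were chosen with earlier results of these data known. Alternatives covered scaling, signal column, background correction, floor, filter, probes, outlier spots, technical arrays, block, side of the slide, samples in the fit and replicates. Sequences are from RefSeq GRCm38.p6. Figures used matplotlib 3.10.9.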

Additional observations from a re-analysis of the deposited data

How the results depend on the processing

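Against control, miR-34b-5p and miR-34c-5p kept their direction in all 18 alternatives, with limma adjusted p of 0.0659 to 1 and 0.0834 to 0.945. Scaling on all mouse probes gave medians over all miRNAs of -0.19 (WT) and -0.51 (MT) against control and 0.30 (WT against MT), and the share of miRNAs above 0 went from 61.3% to 29.6%, from 57.7% to 10.6% and from 37.3% to 92.3%. There miR-34b-5p was -0.98 for WT and -1.28 for MT, miR-34c-5p -0.75 and -1.11, and miR-34a-5p -0.40 and -0.72. miR-34b-3p turned to -0.26 for MT, miR-34c-3p to -0.17 for WT, and WT minus MT to 0.31 (miR-34a-5p), 0.30 (miR-34b-5p) and 0.27 (miR-34b-3p). Quantile normalization gave shares of 57.0%, 51.4% and 57.7% above 0, and turned miR-34a-5p to 0.018 for WT, 0.011 for MT and 0.0071 for WT minus MT, and the miR-34b arm difference to -0.079 for WT minus MT. Normexp background correction called 22 miRNAs for WT and 40 for MT against control, with shares above 0 of 80.3% and 73.9% and, for WT minus MT, 66.2%. It gave miR-34b-3p 0.44 for MT (1 member called), turned miR-34c-3p to 0.22 for MT, and turned WT minus MT to 0.024 (miR-34b-5p), 0.0090 (miR-34b-3p) and -0.042 (miR-34a-5p minus miR-34b-5p). Total gene signal called 3 miRNAs in each comparison with control, with shares above 0 of 49.4% and 47.0% and, for WT minus MT, 56.0%. It turned miR-34c-3p to 0.78 for MT and -0.36 for WT minus MT, and miR-34a-5p to 0.034 for WT minus MT. The pair miR-34b-3p minus miR-34c-3p became -0.13 for WT, -0.48 for MT and 0.36 for WT minus MT, and the miR-34c arm difference 0.45 for WT minus MT. With 0.5 times the floor 1 miRNA was called in each comparison with control, and among miRNAs detected on all arrays 29 were called for MT. WT minus MT turned to -0.022 for the miR-34b arm difference with the mean of all probes. With the first technical array alone it turned to -0.017 for miR-34c-5p and -0.024 for miR-34a-5p minus miR-34b-5p.

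For WT against control, the fit with slide side as a term is the same as the fit without WT replicate 1. With slide side as a term, MT minus control was only -0.01 for miR-34b-5p, and turned to 0.029 for miR-34a-5p and to 0.15 for miR-34b-5p minus miR-34c-5p. WT minus MT then turned to 0.022 (miR-34b-3p), -0.11 (miR-34c-5p), -0.36 (miR-34b arm difference, -0.36 also in the limma fit of arms) and 0.049 (miR-34a-5p minus miR-34c-5p). In the limma fit of arms, chosen after seeing the data, 2 of 11 hairpins (18.2%) passed for WT and 4 of 11 (36.4%) for MT. Shares for the variants of this fit are not given, so a call in a variant cannot be set against the other hairpins. The miR-34b change was called at -0.99 (WT) and -1.02 (MT), also with the replicate block and among hairpins with both arms detected on all arrays. Without WT replicate 2 the miR-34b change was -1.38 and the miR-34c change -0.74 for WT, while WT minus MT for miR-34b turned to -0.36. Without control replicate 1 the miR-34b change was -1.20 for MT.

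Leaving out 1 RNA sample at a time gave the ranges that follow, where a group with 1 sample left is assumed to vary like the others. The count of miRNAs called was 0 to 18 in the MT comparison with control and 0 to 1 between WT and MT, highest without MT replicate 2. Against control, the WT difference ran from -0.90 to -0.35 for miR-34b-5p, from 0.26 to 0.48 for miR-34b-3p, from -0.50 to -0.27 for miR-34c-5p and from 0.03 to 0.34 for miR-34c-3p. The MT difference ran from -0.71 to -0.42 for miR-34b-5p, from 0.40 to 0.51 for miR-34b-3p and from -0.41 to -0.37 for miR-34c-5p. It ran from -0.13 to 0.13 for miR-34a-5p and from -0.18 to 0.13 for miR-34c-3p. WT minus MT ran from -0.17 to 0.088 for miR-34a-5p, from -0.33 to 0.22 for miR-34b-5p, from -0.20 to 0.022 for miR-34b-3p and from -0.11 to 0.12 for miR-34c-5p. For pairs, WT minus MT ran from -0.36 to 0.42 for the miR-34b arms, from -0.24 to 0.28 for miR-34a-5p minus miR-34b-5p, from -0.20 to 0.10 for miR-34a-5p minus miR-34c-5p and from -0.23 to 0.10 for miR-34b-5p minus miR-34c-5p.

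The replicate numbers did not pair the samples: deviations of same-numbered samples had correlations of 0.02 (WT and MT), 0.39 (WT and control) and -0.46 (MT and control). With the replicate block 0 miRNAs were called in each comparison, miR-34b-5p was -0.63 and -0.57 against control, and no call changed. With the MT numbers crossed, chosen after seeing the data, 26 were called for MT against control and 0 in the other comparisons. The cause of these shifts was not tested.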
